A study of Homo sapiens with 4 samples.

Results

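To ask what became of the chromatin around genes by which the response to androgen is usually read, the accessible intervals at 9 canonical androgen target genes were compared between C4-2B and C4-2BER cells. The members are TMPRSS2, FKBP5, SLC45A3, PMEPA1, NDRG1, TRPM8, ACP3, ZBTB16 and CAMKK2, taken by name from the 20007 protein-coding genes of GENCODE release 44. C4-2B is a human prostate adenocarcinoma line that responds to androgen. C4-2BER is its derivative, kept in continuous enzalutamide, an antiandrogen, and labelled as neuroendocrine-like. The assay was ATAC-seq, where a transposase cuts and tags DNA that is free of nucleosomes. Peaks were called on the 2 libraries of a line combined, so each line gave 1 list and there is neither a replicate error nor a test between the lines. Each group is a single cell line, so the drug and any other property of the derived line cannot be told apart.

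Androgens act on transcription through androgen response elements, each a pair of inverted copies of a short sequence. In prostate cells most regulation by androgen runs through sites away from promoters, in introns and between genes, at enhancers that the pioneer factor FOXA1 helps to keep open. Enzalutamide blocks this signalling. The members include proteins of the luminal cell surface or its secretions, namely a serine protease (TMPRSS2), the transporter-like protein prostein (SLC45A3), a cold-activated cation channel (TRPM8) and prostatic acid phosphatase (ACP3). They also include regulators of signalling, namely an HSP90 co-chaperone (FKBP5), a membrane adaptor that dampens TGF-beta signals (PMEPA1), a calcium-dependent kinase (CAMKK2), a stress-induced protein of differentiated cells (NDRG1) and a zinc finger repressor known as PLZF (ZBTB16).

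A locus was taken as the gene and 50 kb either side of it, and an interval belonged to it when its summit, the position of highest pileup, lay inside. The C4-2B list placed 206 of its 149676 intervals at the 9 loci, and the C4-2BER list 136 of its 118728. Intervals of the lists that overlapped by 1 bp or more were called shared, and all others line-only. In C4-2B 90 of the 206 intervals were line-only, and in C4-2BER 19 of the 136. Of the C4-2B-only intervals 81 of 90 were distal, meaning more than 2 kb from every protein-coding transcription start site (TSS), beside 52778 of 56491 over the whole list. Promoter intervals were found in both lists for 8 of the 9 genes, by the GENCODE starts. Even so, 6 of the 25 C4-2B promoter intervals of the members were C4-2B-only (24.0%, beside 15.7% of all promoter intervals). A line-only interval is one missing from the other list and not closed chromatin, since even the weakest summits listed had 8 reads (C4-2B) or 7 reads (C4-2BER).

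Androgen response elements were searched as GNACANNNTGTNC, where N is any base, on both strands within 100 bp of each summit. They were matched at 7 sites, of which 4 were at FKBP5 and 3 at ZBTB16, and at none of the other 7 members. The FKBP5 sites are shown because they include the interval with the highest rank among all C4-2B-only intervals of the 9 loci. Each line gives the hg38 plus strand, 5′ to 3′, with 40 bases either side of the element and the element in capitals.
FKBP5 shared, chr6:35602043-35602135: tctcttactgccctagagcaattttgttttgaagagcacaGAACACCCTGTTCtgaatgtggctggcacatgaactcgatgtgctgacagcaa
FKBP5 C4-2B-only, chr6:35611032-35611124: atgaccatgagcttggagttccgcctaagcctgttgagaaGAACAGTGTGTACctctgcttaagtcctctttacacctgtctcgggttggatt
FKBP5 shared, chr6:35728074-35728166: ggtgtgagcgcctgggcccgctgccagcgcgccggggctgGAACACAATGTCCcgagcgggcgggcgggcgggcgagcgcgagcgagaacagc
FKBP5 shared, chr6:35731979-35732071: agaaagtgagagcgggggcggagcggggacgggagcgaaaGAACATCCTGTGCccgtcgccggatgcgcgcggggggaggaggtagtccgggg
FKBP5 (chromosome 6, 35573585 to 35728583, minus strand) is read from high to low coordinates, so the first and second of these elements are far downstream of the TSS, in introns. The other two lie upstream of the canonical TSS, one beside the promoter of a longer transcript and one between genes.

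The ZBTB16 elements lie close together in an intron and are shown as a cluster of shared and line-only sites, in the same layout.
ZBTB16 shared, chr11:114160165-114160257: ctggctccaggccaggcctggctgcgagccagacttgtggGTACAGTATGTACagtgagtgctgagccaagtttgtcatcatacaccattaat
ZBTB16 shared, chr11:114162977-114163069: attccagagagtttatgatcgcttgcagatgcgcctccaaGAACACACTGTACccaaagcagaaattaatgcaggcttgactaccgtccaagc
ZBTB16 C4-2B-only, chr11:114164078-114164170: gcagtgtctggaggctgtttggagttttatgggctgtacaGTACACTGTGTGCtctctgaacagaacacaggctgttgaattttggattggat
ZBTB16 is on the plus strand of chromosome 11, and these elements are all more than 100 kb downstream of its canonical TSS. An additional search allowed 1 of the 8 fixed letters of the element to differ, an alternative chosen after seeing the data. The strongest C4-2B-only distal interval of each locus was searched over its whole length, and this looser form was found at SLC45A3, ACP3, ZBTB16 and FKBP5. Whole intervals elsewhere were not searched in this way. How common such matches are in intervals of like length is therefore not known, and nothing is concluded from them. The match closest to the summit at SLC45A3, ACP3 and ZBTB16 is shown with 20 bases either side, the looser element in capitals.
SLC45A3, chr1:205699009-205699061: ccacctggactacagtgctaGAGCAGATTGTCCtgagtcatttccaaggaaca
ACP3, chr3:132344901-132344953: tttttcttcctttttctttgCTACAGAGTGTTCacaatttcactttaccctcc
ZBTB16, chr11:114080473-114080525: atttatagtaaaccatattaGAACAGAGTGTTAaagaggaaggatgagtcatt
The strongest C4-2B-only distal interval of TMPRSS2 held neither form anywhere in its length. The 60 bases either side of its summit are shown because the stretch upstream of TMPRSS2 is a much studied androgen-responsive enhancer region, and they hold no match to any of the 9 motifs searched.
TMPRSS2, chr21:41521705-41521825: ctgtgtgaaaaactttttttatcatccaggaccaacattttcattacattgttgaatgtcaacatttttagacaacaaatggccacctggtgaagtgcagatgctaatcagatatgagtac

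Accessible sites at these genes were lost from the C4-2BER list more often than they were added to it. C4-2B-only intervals made up 43.7% of those at the 9 loci (90 of 206, 95% Wilson interval 37.1 to 50.5), beside 37.7% of the whole C4-2B list. C4-2BER-only intervals made up 14.0% (19 of 136, 9.13 to 20.8), beside 20.8% of the whole C4-2BER list. More C4-2B-only than C4-2BER-only intervals were found at 8 of the 9 loci, and the numbers were equal at TMPRSS2. The same direction was seen at 69.3% of all 20007 protein-coding loci and at 78.0% of the 15047 that had at least 5 distal C4-2B intervals. The lists differ in depth, 30.2 M reads for C4-2B and 25.2 M for C4-2BER, which also lengthens the C4-2B list. With equal numbers of top intervals 33.8% at the 9 loci were C4-2B-only, beside 29.1% of the whole list, and 19.1% were C4-2BER-only, beside 27.7%. The Wilson intervals cover counting error only, and sites of a gene are not independent of each other.

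Most intervals of the loci were distal. Of the distal C4-2B intervals 81 of 170 were C4-2B-only, 47.6% (40.3 to 55.1), beside 41.9% over the whole list. Of the distal C4-2BER intervals 16 of 107 were C4-2BER-only, 15.0% (9.42 to 22.9), beside 22.4% over the whole list. Among strong distal intervals, those whose −log10 q reached 10, the C4-2B-only share was 29.6% (32 of 108) beside 25.8%, and the C4-2BER-only share 6.56% (4 of 61) beside 7.93%. At the promoters of the members themselves, 6 of 25 C4-2B intervals and 0 of 18 C4-2BER intervals were line-only. These are 24.0% (11.5 to 43.4), beside 15.7% of all promoter intervals in C4-2B, and a count that allows up to 17.6% by the Wilson interval, beside 13.6% in C4-2BER. By unscaled reads at the summit, 15 of the 90 C4-2B-only sites held at least 50 and the highest held 153, whereas 0 of the 19 C4-2BER-only sites reached 50 and the highest held 33. Their medians were 28.0 and 18.0 reads, beside 19.0 and 14.0 for the line-only sites of the whole lists. Within its own list the median C4-2B-only site stood lower than the median C4-2BER-only site, at rank percentile 25.1 against 33.9, and their median −log10 q was 7.18 and 7.04.

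**Figure D1:**
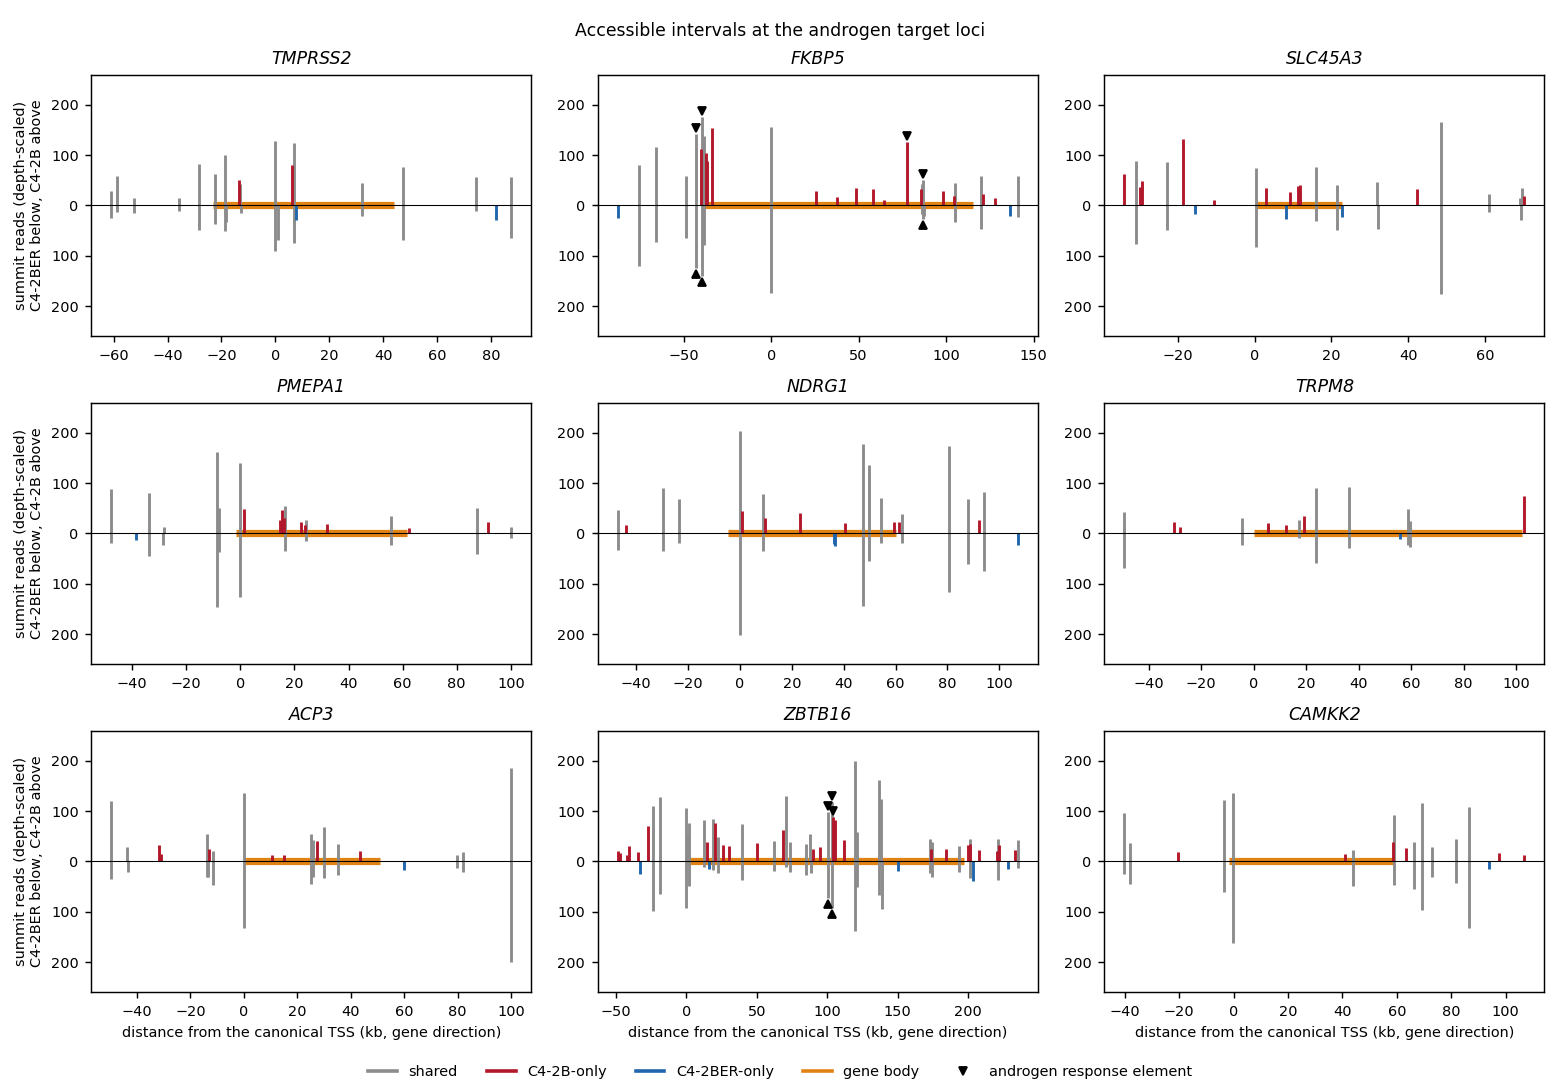
Summit reads of every interval at the 9 loci against distance from the canonical TSS in kb, in the direction of the gene, with C4-2B upward and C4-2BER downward after scaling to the C4-2B depth. Grey lines are shared intervals, red lines C4-2B-only, blue lines C4-2BER-only, orange bars the gene and black triangles intervals with an androgen response element; the tallest red lines stand at FKBP5 and SLC45A3, and no blue line comes from more than 33 reads.

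**Figure D2:**
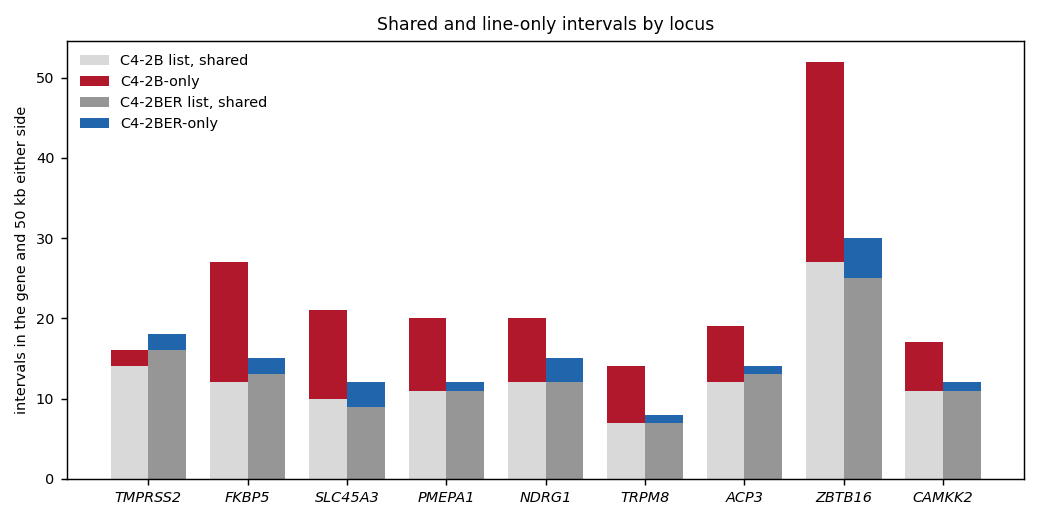
Number of intervals in the gene and 50 kb either side for each member, by list, split into shared (grey) and line-only (colour). The left bar of each pair is C4-2B and is the taller at 8 of the 9 genes, the exception being TMPRSS2 with 16 against 18.

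The loci differed widely among themselves. FKBP5 had 14 C4-2B-only sites among 22 distal C4-2B intervals (63.6%), SLC45A3 11 of 19 (57.9%), ZBTB16 24 of 46 (52.2%) and PMEPA1 8 of 16 (50.0%). TRPM8 followed with 6 of 13 (46.2%), CAMKK2 with 6 of 15, NDRG1 with 5 of 13 (38.5%) and ACP3 with 5 of 14 (35.7%). TMPRSS2, a gene often used to illustrate control by androgen, had the lowest share, 2 of 12 (16.7%). Among the 15047 protein-coding loci with at least 5 distal C4-2B intervals, the median share was 37.5%. FKBP5 stood at percentile 92.8 of these loci, SLC45A3 at 87.2, ZBTB16 at 80.4 and TMPRSS2 at 9.39, so the members are spread over most of the range. In all, 7 of the 9 were above the median of all loci.

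**Figure D3:**
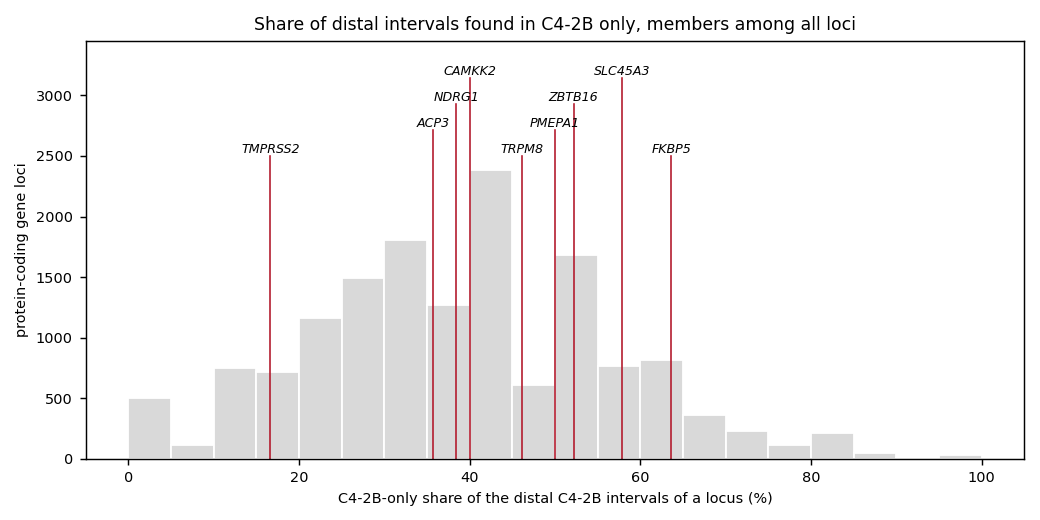
Share of the distal C4-2B intervals of a locus that were C4-2B-only, in percent, for 15047 protein-coding loci with at least 5 such intervals (grey histogram, number of loci per 5-point bin). Red lines mark the 9 members, from TMPRSS2 at 16.7% to FKBP5 at 63.6%.

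Sites that remained on both lists were compared by the reads over the summit, which were recovered from the deposited values, with C4-2BER multiplied by the depth ratio of 1.20. Each count was taken at the summit of its own interval, so the counts of a pair can be of different positions. Over the shared sites of the 9 loci, of which 89 were distal, 19 at promoters of the members and 8 at promoters of neighbouring genes, the median log2 ratio, C4-2BER over C4-2B, was −0.46, beside −0.13 over the 93185 shared sites of the whole list. At the 9 loci 91 sites (78.4%) held fewer scaled reads in C4-2BER, beside 59.0% of the whole list. The counting error of both counts was exceeded downward at 49 sites (42.2%, 33.6 to 51.3), beside 20.9%, and upward at 7 (6.03%), beside 6.77%. Scaled reads in C4-2BER were at most 0.5 times those in C4-2B at 27 sites (23.3%, 16.5 to 31.7), beside 13.4%, and at least 2 times at 3 (2.59%), beside 3.87%. The shift was thus one of fewer reads at many sites, with large drops at 27 of them and large gains at 3.

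The ranks of the sites within each list were compared as well. The rank percentile, set by −log10 p, was lower in C4-2BER at 70 shared sites (60.3%, 51.2 to 68.8), beside 56.4% of the whole list. The median change was −2.41 percentile points, beside −1.54. With equal numbers of top intervals it was 0.65, beside 1.99 for the whole list, so no direction is read from the ranks. At distal sites the median log2 ratio was −0.48 (89 sites), beside −0.26, and the intervals were narrower in C4-2BER by a median of 110 bp, beside 35 bp. At the promoters of the members the median log2 ratio was −0.29 (19 sites), whereas over the promoters of all protein-coding genes it was 0.13. Scaled reads were fewer at 14 of these 19 sites, beside 31.8% of all promoter sites. At the 8 canonical promoters they were fewer at 5, with a median log2 ratio of −0.03, a range from −0.51 to 0.26 and TMPRSS2 alone beyond counting error. The other 11 sites, at further starts of the members or farther from the canonical one, had a median of −0.66. They ranged from −1.34 to 0.94, with 5 lower and 2 higher beyond counting error.

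**Figure D4:**
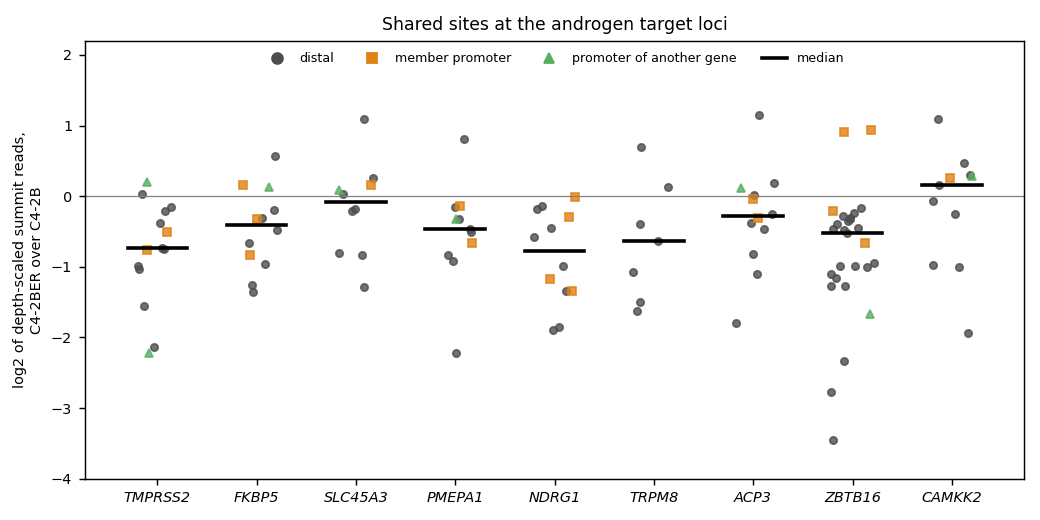
Log2 ratio of depth-scaled summit reads, C4-2BER over C4-2B, for each shared site by locus, with distal sites as circles, promoters of the member as squares, promoters of other genes as triangles and the median of each locus as a bar. The medians lie below 0 at 8 of the 9 loci and are lowest at NDRG1 (−0.78) and TMPRSS2 (−0.74), with CAMKK2 (0.15) the exception.

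The local background, which macs2 estimates from the 10 kb around a summit and which includes the reads of the site itself, moved with these values. At the shared sites of the 9 loci its median log2 change after depth scaling was −0.64, whereas over the whole list it was 0.00. The recovered background is never below the genome-wide level, so sites near that level have little room to fall. In C4-2B the median was 3.67 times that level at the shared sites of the 9 loci and 1.69 times over the whole list, which limits this comparison. By locus the change was −1.05 at ZBTB16, −0.80 at NDRG1, −0.67 at TMPRSS2, −0.65 at SLC45A3, −0.56 at FKBP5, −0.50 at PMEPA1, −0.33 at TRPM8, −0.19 at CAMKK2 and 0.03 at ACP3. At the intervals of the C4-2B list the median background ran from 1.33 times the genome-wide level at TRPM8 to 5.64 times at SLC45A3, and at those of the C4-2BER list from 1.18 times at TRPM8 to 3.86 times at CAMKK2. The surroundings of the sites thus also held fewer reads in C4-2BER at most of these loci, while at ACP3 the background was alike. The part of the background, or of the number of copies of each region, in the results was not tested.

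**Figure D5:**
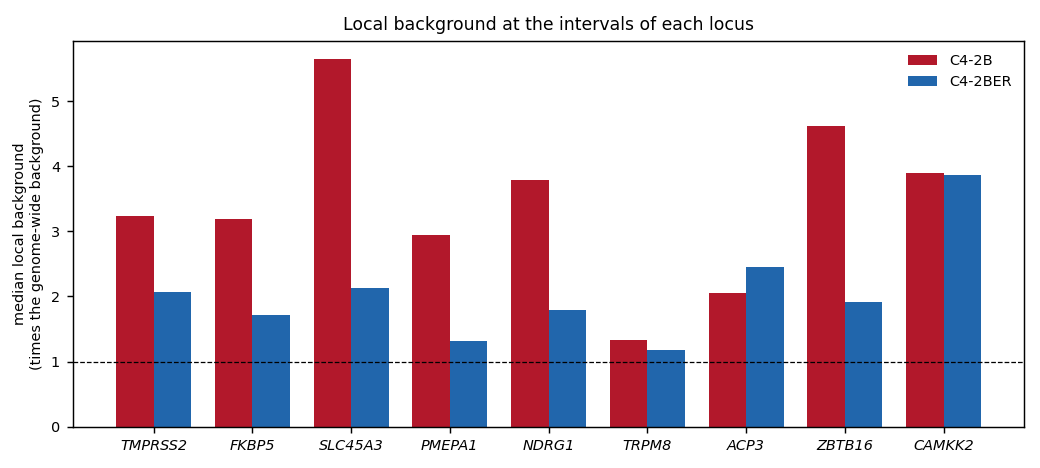
Median local background at the intervals of each locus, as a multiple of the genome-wide background of the same list (dashed line at 1), for C4-2B in red and C4-2BER in blue. The background was higher in C4-2B at 8 of the 9 loci, by the most at SLC45A3 (5.64 against 2.12), and lower at ACP3 (2.06 against 2.45).

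FKBP5, whose product binds HSP90 and restrains glucocorticoid signalling, lost the most prominent site. The C4-2B-only interval at chr6:35610762-35611573, in an intron 77854 bp downstream of the TSS, held 125 reads, a fold enrichment of 16.9 and rank percentile 97.6 in its list. Its element, GAACAGTGTGTAC, lay 17 bp from the summit. No C4-2BER interval overlapped this site, although it was among the top few percent of C4-2B. The neighbouring intronic element, GAACACCCTGTTC, stayed in a shared site with 51 C4-2B and 22 C4-2BER reads (log2 −0.95, counting error −1.75 to −0.21). The element beside the promoter of the longer transcript went from 176 to 117 reads (log2 −0.33, −0.68 to 0.02) and the one between genes beyond it from 142 to 104 (log2 −0.19, −0.57 to 0.19), both within counting error. The element sites of FKBP5 thus ranged from line-only in the intron to within counting error of C4-2B upstream.

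The canonical FKBP5 promoter kept its interval, with 155 C4-2B and 145 C4-2BER reads (log2 0.16, −0.17 to 0.50). Between 40176 and 33695 bp upstream, around the TSS of the longer transcripts, 4 C4-2B-only intervals held 113, 105, 89 and 153 reads. Only the last of them, chr6:35722326-35722835, ranked high in its list, at percentile 89.5, and the others ranked between 32.3 and 50.9. The strongest shared distal site by C4-2B rank, 66034 bp upstream, held 61 reads in C4-2BER and was at rank percentile 96.0 and then 87.8 (log2 −0.67, −1.14 to −0.21). The strongest by C4-2BER rank, at percentile 96.2, lay 75715 bp upstream and ran the other way, from 81 to 100 reads (log2 0.56, 0.13 to 1.00). The strongest C4-2BER-only interval held 21 reads and lay at the promoter of a neighbouring gene.

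ZBTB16, the PLZF repressor, is the largest locus and had the most line-only sites, 25 of 52 in C4-2B and 5 of 30 in C4-2BER. Of its element sites, GTACACTGTGTGC was in a C4-2B-only interval of 89 reads at rank percentile 50.8, with the element 7 bp from the summit. The shared GTACAGTATGTAC site went from 99 to 60 reads (log2 −0.46, −0.95 to 0.01) and the shared GAACACACTGTAC site from 118 to 77 (log2 −0.36, −0.79 to 0.07). Both shared sites ranked higher in C4-2BER than in C4-2B, at 72.8 against 66.7 and 80.9 against 71.7, with lower background around them. Reads and ranks therefore pointed in opposite directions at these elements.

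The lowest log2 ratio of any shared site at the 9 loci was also in ZBTB16 (−3.45, −4.55 to −2.53). The C4-2B summit, 70462 bp downstream of the TSS, held 131 reads at rank 86.8. The overlapping C4-2BER interval had its summit 70672 bp downstream, with 10 reads at rank 0.158, and did not reach the C4-2B summit. These counts are therefore of different positions. Intronic sites 12573 and 18808 bp downstream went from 82 to 10 reads (log2 −2.78) and from 84 to 14 (log2 −2.33). The strongest shared distal site, 119663 bp downstream, stayed prominent, with 200 reads in C4-2B and rank percentiles of 97.1 and 94.7 (log2 −0.53, −0.87 to −0.19). The strongest C4-2B-only interval, chr11:114080181-114080676, held 76 reads, and the strongest C4-2BER-only interval, chr11:114262753-114263041 inside NNMT, held 33, the highest of its kind at the 9 loci. The canonical promoter went from 107 to 77 reads (log2 −0.22, −0.66 to 0.22). It was 1 interval of 1978 bp in C4-2BER and 3 separate intervals in C4-2B, and the apparent gains of 0.91 and 0.94 at the weaker 2 of these compare each with the strongest summit of the wide interval.

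TMPRSS2, the androgen-induced protease that primes viral spike proteins and is a common fusion partner in prostate cancer, kept nearly all its sites with fewer reads. Of 14 shared sites 12 held fewer scaled reads in C4-2BER and 9 did so beyond counting error. The promoter went from 128 to 75 reads (log2 −0.51, −0.94 to −0.09), and its 2203 bp interval in C4-2B overlapped a pair of C4-2BER intervals, of 673 bp with those 75 reads and of 869 bp with 58. Rank percentiles of 81.9 and 79.6 show little of this. Thus the promoter of TMPRSS2 was on both lists at similar ranks while its read count was lower beyond counting error.

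Upstream of TMPRSS2 the C4-2B-only interval at chr21:41521532-41521952, centred 13607 bp from the TSS, held 51 reads at rank percentile 60.4. The shared site beside it had its C4-2B summit 13048 bp upstream, with 42 reads. The overlapping C4-2BER interval had its summit 12665 bp upstream, with 12 reads, so the counts are of different positions (log2 −1.55, −2.61 to −0.60). Sites 18709 and 28407 bp upstream went from 100 to 42 reads (log2 −0.99) and from 82 to 41 (log2 −0.74), the latter being the strongest shared distal site by C4-2B rank. The site farthest below its C4-2B level among the distal ones, 58637 bp upstream, went from 58 to 11 reads (log2 −2.14). Each of these named shared sites was lower beyond counting error, in the first of them between different positions. So was a site at a further promoter of the gene, 22419 bp upstream (log2 −0.76, −1.43 to −0.12). The shared sites 35810, 52429 and 60849 bp upstream were within counting error (log2 −0.38, 0.04 and −0.21). The second C4-2B-only interval, 6081 bp into the gene, held 80 reads, and the strongest C4-2BER-only interval, of 24 reads, lay at a promoter of MX1.

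SLC45A3, the prostein gene and another fusion partner, had 11 C4-2B-only sites of 21. The strongest, chr1:205698728-205699544, lay between genes 18639 bp upstream and held 132 reads at rank percentile 92.5. The other upstream ones held between 10 and 62 reads, and 4 in the gene between 27 and 40. The shared sites had a median log2 ratio of −0.08, with 5 of 10 lower, and the strongest distal one went from 89 to 64 reads (log2 −0.22, −0.70 to 0.26). Lower beyond counting error were the sites 15985 bp downstream, from 76 to 26 reads (log2 −1.29, −1.99 to −0.63), and 22753 bp upstream, from 87 to 41 (log2 −0.83, −1.40 to −0.28). Its strongest C4-2BER-only site, intronic, held 23 reads. The promoter was alike in reads, 74 and 69 (log2 0.16, −0.34 to 0.65), and higher in rank in C4-2BER, at 85.0 against 69.6.

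Promoter sequence in RefSeq (GRCh38.p14) was at hand for 6 of the 9 members. The 250 bases before the SLC45A3 start are printed, in gene direction, as a promoter open in both lines that holds none of the 9 motifs searched.
SLC45A3 promoter, chr1:205680510-205680759: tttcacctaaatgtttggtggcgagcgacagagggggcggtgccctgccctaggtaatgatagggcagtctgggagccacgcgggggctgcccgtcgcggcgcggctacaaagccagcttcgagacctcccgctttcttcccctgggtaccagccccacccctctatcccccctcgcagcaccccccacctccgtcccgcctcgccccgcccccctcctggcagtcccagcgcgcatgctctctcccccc
Over 35116 RefSeq promoter windows of the same length, 12.4% held the hexamer AGAACA and 0.327% the full element, so a promoter without either is the usual case.

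TRPM8, the menthol and cold receptor, was the sole member whose promoter interval was found in C4-2B only, by the GENCODE starts. That interval was weak, with 16 reads at rank percentile 21.3, and lay at an internal TSS 12237 bp downstream of the canonical one, which had no interval in either list. RefSeq has further TRPM8 promoter windows, and those at chr2:233953503-233953752 and chr2:233976178-233976427 hold summits of shared sites. These sites, 36246 and 58953 bp into the gene, are counted as distal here. The strongest C4-2B-only interval, chr2:234019946-234020940, lay just beyond the gene and held 74 reads at rank percentile 83.5. The strongest shared distal site by C4-2B rank, 36246 bp into the gene, went from 92 to 25 reads (log2 −1.62, −2.32 to −0.97). The strongest by C4-2BER rank, at percentile 89.2, lay 49289 bp upstream and was higher beyond counting error, from 42 to 57 (log2 0.70, 0.10 to 1.31). TRPM8 thus showed sites moving in both directions, and its single C4-2BER-only interval held 10 reads.

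ACP3, which encodes prostatic acid phosphatase, kept its promoter with 137 C4-2B and 111 C4-2BER reads (log2 −0.04, −0.42 to 0.33). Its strongest shared distal site, 49584 bp upstream, went from 120 to 29 reads and from rank percentile 97.3 to 69.9 (log2 −1.79, −2.43 to −1.20). A site 11494 bp upstream ran the other way, from 21 to 39 reads (log2 1.15, 0.35 to 1.99). Upstream of ACP3 there were thus both lower and higher sites. The strongest C4-2B-only interval lay at a promoter of a neighbouring gene with 32 reads at rank 60.5, the strongest distal one, chr3:132344694-132345189, held 41 reads at rank 46.8, and the single C4-2BER-only interval held 14.

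PMEPA1, the TGF-beta dampening adaptor, had 9 C4-2B-only intervals of 20, none above 49 reads. The strongest of them, chr20:57694550-57694879 in an intron, held 46 reads at rank percentile 41.1. The promoter went from 140 to 106 reads (log2 −0.14, −0.52 to 0.23), and the strongest shared distal site, 8619 bp upstream, from 162 to 122 (log2 −0.15, −0.50 to 0.20). Both of these strong sites thus differed within counting error. Farther upstream, 47685 bp from the TSS, a site went from 89 to 16 reads (log2 −2.22, −3.08 to −1.44), and the only C4-2BER-only interval held 11 reads.

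NDRG1, a stress and androgen induced gene on chromosome 8, held fewer scaled reads at all 12 shared sites, 7 of them beyond counting error. The canonical promoter was nearly level, with 203 C4-2B and 168 C4-2BER reads (log2 −0.01, −0.32 to 0.29). Internal promoters 8747 and 49621 bp downstream went from 78 to 29 reads (log2 −1.17) and from 136 to 45 (log2 −1.34). The strongest shared distal site, 80559 bp downstream, went from 173 to 97 reads (log2 −0.58, −0.95 to −0.21). Another internal promoter, 47286 bp downstream, was within counting error, from 177 to 121 reads (log2 −0.29, −0.64 to 0.05). So were 3 of the 8 distal sites, 94215 and 87774 bp downstream (log2 −0.14 and −0.18) and 47056 bp upstream (log2 −0.46, −1.19 to 0.25). Its strongest C4-2B-only interval, 23304 bp into the gene, held 41 reads, and its strongest C4-2BER-only interval 21.

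CAMKK2, the kinase through which calcium activates AMPK, was the member least lower in C4-2BER. Its promoter held 136 reads in both lists (log2 0.26, −0.10 to 0.61) and ranked at percentile 87.2 in C4-2B and at 94.1 in C4-2BER. The strongest shared distal site, 69224 bp downstream, held 81 reads in C4-2BER and was at rank percentile 90.9 and then 88.0 (log2 −0.26, −0.69 to 0.16), and the median log2 ratio of 11 shared sites was 0.15. Of its 3 shared upstream sites 2 were lower beyond counting error, from 96 to 21 at 40128 bp (log2 −1.93, −2.69 to −1.24) and from 122 to 51 at 3671 bp (counting error of the log2 ratio −1.50 to −0.52), and the one at 38254 bp, from 36 to 37 reads (log2 0.30), was within it. A site 43805 bp downstream ran the other way, from 23 to 41 reads (log2 1.09, 0.32 to 1.90). Its strongest C4-2B-only interval held 38 reads and its C4-2BER-only interval 12.

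Upward differences were few. Of the 7 shared sites with more reads beyond counting error, 3 compared a weak C4-2B interval with a wide C4-2BER interval that was also paired with another site. The other 4 had a C4-2BER interval of their own, at FKBP5, TRPM8, ACP3 and CAMKK2 as given above. No shared site at TMPRSS2, PMEPA1 or NDRG1 was higher beyond counting error.

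Sequence features were set beside those of all distal intervals of the same class, as a description. The full element was matched in 2 of 81 C4-2B-only distal sites at the 9 loci (2.47%, 0.680 to 8.56), beside 2.90% of that class in the whole list. It was matched in 4 of 89 shared distal sites (4.49%, lower bound 1.76), beside 0.906%, and in 0 of 16 C4-2BER-only ones, beside 0.246%. The looser form was in 16 of 81 C4-2B-only distal sites (19.8%) beside 18.5%, in 11 of 89 shared ones (12.4%) beside 10.4%, and in 2 of 16 C4-2BER-only ones (12.5%) beside 6.47%. Except for the full element in shared sites, the members' shares were within counting error of the whole list. With 2 such sites among the 81, the counts are too few to tell whether the full element differed in frequency from C4-2B-only sites elsewhere.

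The hexamer AGAACA, a single arm of the element that can overlap a full match, was in 13.6% of C4-2B-only distal sites (7.76 to 22.7), beside 23.5% of the whole class, and in 28.1% of shared ones (19.8 to 38.2), beside 17.1%, shares below and above the whole list by a little more than counting error. The forkhead motif TGTTTAC, bound by FOXA1, was in 11.1% of C4-2B-only distal sites beside 12.5%, and in 5.62% of shared ones beside 9.85%. The AP-1 motif TGANTCA was in 12.3% beside 11.3%, and in 6.74% beside 10.8%. The GATA motif AGATAA was in 6.17% of C4-2B-only distal sites (2.67 to 13.6) beside 14.8%, and in 11.2% of shared ones beside 11.9%. Over the whole list, 664 shared distal sites with the full element had a median log2 ratio of −1.04 and those without it −0.26. The 4 such sites at FKBP5 and ZBTB16 had a median of −0.41 and the other 85 at the 9 loci −0.51.

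Other androgen-regulated genes were set beside the members, without a test of the difference. At 26 such genes, which include the kallikreins KLK2 and KLK3 and the transporter ABCC4, 131 of 330 distal C4-2B intervals were C4-2B-only (39.7%, 34.6 to 45.1), beside 41.9% of the whole list and 47.6% at the members. Of their distal C4-2BER intervals 27 of 232 were C4-2BER-only (11.6%, 8.12 to 16.4), beside 22.4% and 15.0%. The intervals of the members and of these genes overlapped for both shares. A promoter interval was found in both lists for all 26. The median log2 ratio of 264 shared sites was −0.42, close to the −0.46 of the members. At 16 housekeeping genes the C4-2B-only share was alike at 39.7% (54 of 136, 31.9 to 48.1), the C4-2BER-only share was 19.1% and the median log2 ratio 0.06. That median is of an unlike mix of sites, since 136 of 209 C4-2B intervals were distal there and 170 of 206 at the members. Over the whole list the median was −0.26 at distal and 0.13 at promoter sites. The C4-2B-only shares of both androgen-regulated lists had intervals that overlapped that of the housekeeping genes. C4-2B-only intervals outnumbered C4-2BER-only ones at 21 of the 26 loci and at 13 of the 16 housekeeping loci. KLK2, KLK3 and KLK4, which lie side by side and share intervals, had 13.3%, 15.4% and 9.09% C4-2B-only distal sites, below TMPRSS2, whereas ABCC4 had 47.1% (16 of 34).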

How the data were processed

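ATAC-seq was measured in 4 libraries, 2 of each line. Per the methods of the study, trimmed reads were placed on hg38 by Bowtie2, those of low mapping quality and duplicates were removed, libraries were merged by line, and the authors called peaks with macs2 (no model, shift printed as 100, extension of 200 bp, version not given in the sources used here). The deposited fold enrichment is the ratio of summit reads plus 1 to local background plus 1. Per the file format, the −log10 p-value and −log10 q-value are those the authors' caller gave the summit, and the deposited offset, of another kind, places it. The score column was not used.

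The reads over each summit and their background were recovered from the deposited fold and −log10 p, with a whole number for 100% of summits, and the step was tested on simulated data. The genome-wide background gave depths of 30.2 M and 25.2 M reads at a genome size of 2700000000 bp. Rows of 1 interval were counted once, with the summit of highest −log10 p. Each shared C4-2B interval was paired with the strongest C4-2BER interval that overlapped it, and the summits of a pair need not coincide. Promoters were summits within 2000 bp of a protein-coding TSS (GENCODE release 44), and distances run from the canonical TSS. Shares carry 95% Wilson intervals and log2 ratios exact conditional binomial ones, which cover counting error only. Work was done in Python 3.11.15 with scipy 1.17.1, pandas 2.3.3 and pysam 0.24.0.

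Members, gene lists, motifs and alternatives were chosen with earlier results of these data known. Sites named by rule were, at each locus, the promoter, the strongest shared distal, C4-2B-only and C4-2BER-only sites, and every site with an element. The strongest shared distal site was the highest by C4-2B rank, a choice that favours a lower value in C4-2BER. Other sites named, and the sequences without a full element, were chosen after their values were seen.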

Additional observations from a re-analysis of the deposited data

How the results depend on the processing

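No paired analysis was possible because peaks were called on the merged libraries of a line, and for the same reason no replicate could be left out. Of the values under alternatives, 53 kept their direction and stayed within the limits of the main ones. With a −log10 q of at least 10 in both lists, the 9 loci held 134 C4-2B and 84 C4-2BER intervals. Such intervals set against all intervals of the other list gave C4-2B-only shares of 25.4% and, among distal ones, 29.6%, and C4-2BER-only shares of 7.14% and 6.56%. With equal numbers of top intervals, which shortens the C4-2B list alone, the C4-2B-only shares were 33.8% and, among distal ones, 37.4%, and the median rank change of shared sites turned from −2.41 to 0.65, so the direction of the rank change depends on list length. A reciprocal overlap of at least 50% gave C4-2B-only shares of 56.3% and 58.8% (distal) and C4-2BER-only shares of 33.8% and 34.6% (distal). Counting intervals up to 500 bp apart as overlapping gave C4-2B-only shares of 36.4% and 40% (distal). With 100 kb either side, the C4-2BER list held 217 intervals. Elements within 250 bp of the summit raised C4-2B-only element sites from 2 to 4. Without depth scaling the median log2 ratio was −0.72.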

Other observations

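Promoters of neighbouring genes in the same windows, counted above among the intervals of the loci but not described by gene, held the following values. Of the MX1 promoter sites near TMPRSS2, 1 was alike at 57 and 55 reads (C4-2B and C4-2BER), and 1 went from 56 to 10 (log2 −2.23, counting error −3.36 to −1.24), while another, of 24 reads, was C4-2BER-only. MX1 encodes an interferon-induced antiviral GTPase. The ELK4 promoter near SLC45A3 held 166 and 147 reads (log2 0.08, −0.25 to 0.41), that of DNAJC13 near ACP3 185 and 167 (log2 0.11, −0.20 to 0.42) and that of P2RX4 near CAMKK2 108 and 110 (log2 0.29, −0.11 to 0.68). At NNMT, a nicotinamide methyltransferase gene beside ZBTB16, a promoter site went from 42 to 11 reads (log2 −1.67, −2.78 to −0.69). These sites were chosen after their values were seen.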
